A study of Mus musculus with 8 samples.

Results

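The genes described here are 34 mouse genes of antigen presentation, taken as a fixed list of symbols: 21 of the class I pathway, 9 of the class II pathway including lysosomal processing, the 3 subunits of the RFX complex that serves both pathways, and the lipid-presenting gene Cd1d1. A gene's probes were found by symbol among the non-control spots of 1-colour Agilent expression arrays. Of the 34 genes, 32 had a probe and 27 had a probe bright enough to be tested, among 15097 features tested in all. Total RNA of 4 samples of CT26-FL3 was compared with that of 4 samples of CT26. CT26-FL3 is a mouse colon cancer line, derived from CT26 by selection in mice over 3 rounds of growth in the liver. The liver lesions were dissociated with enzymes and the cells were kept briefly in culture so that stromal cells of the host would be lost, and CT26-FL3 is therefore 1 selected derivative. CT26 is the parental line and is labelled as poor in liver metastasis. Both are labelled with the Balb/c strain and the same serum-containing growth medium, and the labels name no genetic change or added agent for either. The samples are called independent, but nothing says that each came from its own culture. The p-values therefore reflect only how far these samples spread, and that spread may be technical.

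In the class I pathway, the proteasome cuts cytosolic proteins into peptides, the TAP transporter carries them into the endoplasmic reticulum, and a loading complex places them on a heavy chain bound to beta-2 microglobulin, which CD8 T cells inspect at the surface. In the class II pathway, lysosomal enzymes cut ingested proteins, the invariant chain CD74 guards the peptide groove until H2-DM exchanges its remnant for a peptide, and CD4 T cells read the product. Nearly all cells use class I, which interferon gamma raises through IRF1 and the transactivator NLRC5, whereas class II needs the transactivator CIITA and is mostly kept to professional antigen-presenting cells.

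Each array held 45018 spots, and an intensity limit of 16.9 to 23.2 units, set from its 153 negative controls, marked the probes that were detected. Between 52.8% and 58.2% of the 41174 probes were above the limit of their array. Correlations between arrays lay between 0.996 and 0.998 within a line, against 0.982 to 0.984 between the lines. Levels are given below as normalised intensity, meaning the background-subtracted intensity scaled so that the 75th percentile of every array was 888. Changes are log2 differences, CT26-FL3 minus CT26, with the standard error (SE) or 95% confidence interval and n = 4 arrays per line. The adjusted p is that of limma with Benjamini-Hochberg adjustment over all 15097 features, and a gene passed the test at an adjusted p under 0.05.

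The antigen presentation genes moved in both directions, and most changes were small. Of the 27 tested genes, 11 were higher in CT26-FL3, 4 were lower and 12 did not pass the test. The lines differed in much of the transcriptome, since 49.5% of all features passed, 24.1% as higher and 25.3% as lower in CT26-FL3. The median log2 change of the 27 genes was 0.10, beside -0.01 over all features. For 15 of the 27 genes the arrays of the lines did not overlap, and this was so for 47.4% of all features. Cd1d1 passed with a change of at least 2-fold, and so did 5.5% of all features. The fitted change of Cd74 was of that size too, but Cd74 was above the limit on only 2 of the 4 CT26 arrays, so its size is not well measured. Class I and class II differed in what could be measured at all. Of the 21 class I genes 18 were tested, of which 5 were higher, 3 lower and 10 not past the test, with a median log2 change of 0.06. Of the 9 class II genes only 5 were tested, of which 3 were higher, 1 lower and 1 not past the test. Their median was 0.53, over changes from -0.36 to 1.03, and Cd74 and H2-Eb1 among them lay near the limit. Cd74 would have met the filter through its CT26-FL3 arrays alone, so this median is not set against that of class I. Of the 3 class II genes above the limit on all 8 arrays, H2-DMa (0.53) and Lgmn (0.68) were higher and Ifi30 (-0.36) was lower. All 27 tested genes were above the limit on arrays of both lines. The 5 listed genes with probes that were not tested were Ciita, H2-Aa, H2-Ab1, H2-DMb1 and H2-Q1.

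**Figure D1:**
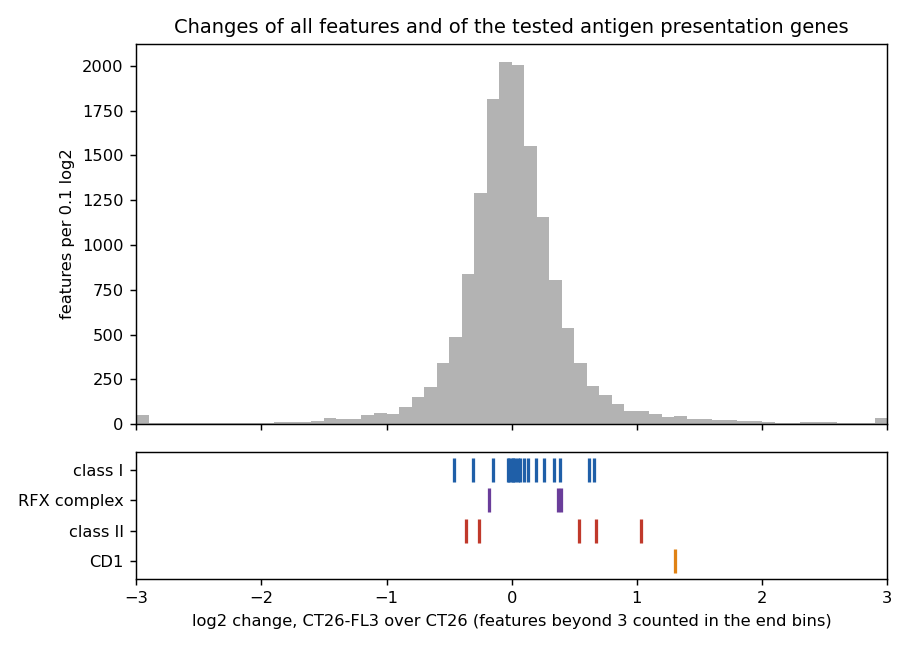
Log2 change, CT26-FL3 over CT26, on the x axis for all 15097 features (upper panel, features per bin of 0.1) and for the 27 tested antigen presentation genes (lower panel, 1 tick per gene, in rows by class). The class I ticks lie between -0.46 and 0.65, and the CD1 tick stands at 1.30.

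**Figure D2:**
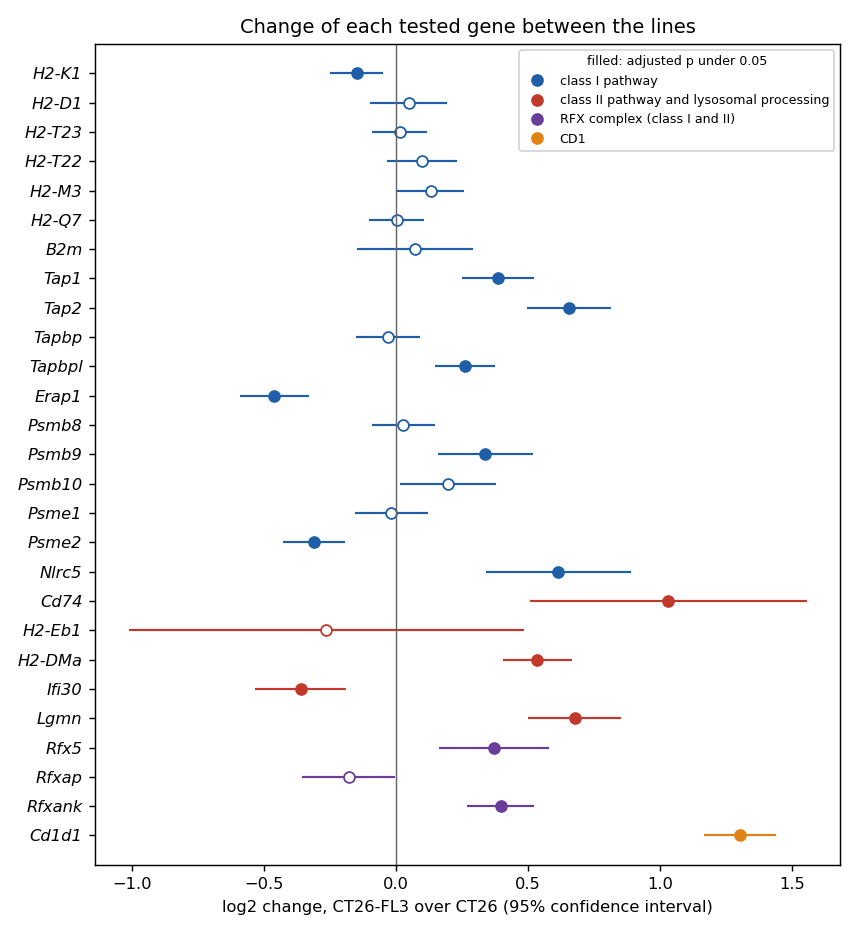
Log2 change, CT26-FL3 over CT26, of each tested gene, with its 95% confidence interval (n = 4 arrays per line). Filled points passed the test at an adjusted p under 0.05, and open points did not. The heavy chains H2-K1 to H2-Q7 and B2m stay within 0.15 of 0, whereas Tap2, Nlrc5, Cd74, Lgmn and Cd1d1 lie above 0.6.

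The class I heavy chains, which hold the peptide, had small changes between the lines. Of 9 listed, 6 were tested, with log2 changes from -0.15 to 0.13. Of these 6, H2-K1 alone passed, beside 49.5% of all features. H2-K1 and H2-D1 encode the classical chains H2-K and H2-D. H2-K1 had 134969, 139468, 140345 and 140235 units on CT26-FL3 arrays 1 to 4, against 151447, 147943, 154888 and 161728 units on CT26 arrays 1 to 4. Every CT26-FL3 array was below every CT26 array, and the H2-K1 level fell by 0.15 on the log2 scale (SE 0.04, adjusted p = 0.0203). Its other 3 probes gave log2 changes of -0.16, 0.05 and 0.04 and did not pass. The H2-K1 call ended with the mean over its probes (-0.06, adjusted p = 0.340) and also without CT26-FL3 replicate 1 (adjusted p = 0.0525) or without CT26 replicate 4 (adjusted p = 0.0568). H2-D1 had 102463, 110163, 103602 and 112766 units in CT26-FL3, against 114838, 95799, 103573 and 101731 units in CT26. These arrays overlapped, and the H2-D1 interval of the log2 change ran from -0.10 to 0.19 (adjusted p = 0.590).

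The 4 tested non-classical heavy chains of the list gave no call. Outside the list, H2-T24 (0.24) and H2-Q8 (0.16) passed as higher, while H2-Q2, H2-Q4, H2-Q10 and H2-Bl did not pass. H2-T23 encodes Qa-1, which the receptors NKG2A and CD94 of natural killer cells recognise, and its log2 change was 0.01 (interval -0.09 to 0.12). H2-Q7 encodes Qa-2, and its change was 0.00 (interval -0.10 to 0.11). H2-T22, seen by some gamma delta T cells, had a change of 0.10 (interval -0.03 to 0.23, adjusted p = 0.194), and 1 of its 2 other probes passed at 0.14 when probes were fitted separately. H2-M3, which presents formylated bacterial peptides, had a change of 0.13 (interval 0.00 to 0.26, adjusted p = 0.0810), and its second probe passed at 0.20. The probe that the platform annotation gives to H2-Q1 was above the limit on no array, with 2.39, 3.66, 5.32 and 3.30 units in CT26-FL3, against 2.75, 3.49, 2.56 and 8.59 units in CT26. The array's own names give 2 further probes to H2-Q1, which the annotation gives to H2-Q2 (0.01) and H2-Q4 (0.00), and they are kept apart here. H2-L, a class I gene of the H2-d haplotype of BALB/c mice, and H2-T10 had no probe by symbol. These genes are close copies of each other, so a probe can also bind the RNA of a relative. H2-Q10, known as a class I gene secreted by the liver, had 4 of 5 probes above the limit on all 8 arrays.

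The class I promoters carry elements through which NF-kappaB and interferon regulatory factors are known to act, and the stretch that holds them is shown for the 3 heavy chain genes whose RefSeq promoter window (GRCm38.p6, 250 bases before to 50 after the start site) matched the kappaB-type letters GGGGATTCC. The match starts 111, 171 and 133 bases before the annotated start site of H2-K1, H2-D1 and H2-Q7. Capitals mark it and the short interferon-response-type motif GAANNGAAA, which lies here on the opposite strand.
H2-K1, chr17:34000399-34000470, minus strand: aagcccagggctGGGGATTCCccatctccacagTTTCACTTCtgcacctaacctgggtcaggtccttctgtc
H2-D1, chr17:35262911-35262982, plus strand: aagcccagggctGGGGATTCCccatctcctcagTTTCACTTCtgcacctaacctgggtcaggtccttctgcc
H2-Q7, chr17:35439010-35439081, plus strand: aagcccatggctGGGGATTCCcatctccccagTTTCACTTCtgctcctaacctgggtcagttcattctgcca
None of the 3 genes had a change over 0.15 in size. Of the 34 genes, 23 had a promoter window in the RefSeq table. On either strand, GGGGATTCC occurred in 3 of these 23 and in 0.259% of all 27025 windows, and GAANNGAAA in 5 of 23 and in 7.56% of all. The 3 genes with GGGGATTCC are close copies with nearly the same stretch, so their matches are not independent. An excess over all windows was not tested. The longer form of that motif, GAAA and GAAA with any 2 bases between them, which overlaps the short one in Psme1, occurred in 5 of 23 windows (H2-T23, H2-T22, B2m, Erap1 and Psme1) and in 3.49% of all. The interferon-gamma-type (GAS) motif TTCNNNGAA occurred in 2 of 23 (H2-M3 and Psmb8) and in 8.47% of all, and CCAAT in 16 of 23 and in 37.9% of all. Such a match of letters is a description of the window and no record of binding. All windows are those of the reference genome, and the sequence in these Balb/c lines was not read and may differ.

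B2m encodes beta-2 microglobulin, the light chain without which class I heavy chains do not reach the surface. It had 72516, 94731, 99390.5 and 87926 units in CT26-FL3, against 87764, 78321, 84574 and 84997 units in CT26. CT26-FL3 held both the lowest and the highest array, and the B2m change of 0.07 had an interval from -0.15 to 0.29 (adjusted p = 0.584). A second B2m probe, printed in 10 spots per array, gave 0.01 (SE 0.04), and the third gave 0.04.

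The genes that move peptides to the heavy chain changed in both directions: 3 of 5 were higher in CT26-FL3 and 1 was lower. Over all features, 24.1% were higher and 25.3% lower. Tap1 and Tap2 encode the subunits of the peptide transporter. Tap2 had 7018, 6080.0, 6781 and 7486 units in CT26-FL3, against 4310.45, 4163, 4617 and 4267 units in CT26. Tap2 was higher on every CT26-FL3 array than on any CT26 array, with a log2 change of 0.65 (SE 0.07, 1.57-fold, adjusted p = 8.18e-05). Tap1 had 8636, 8017, 8476 and 9223 units in CT26-FL3, against 6801, 6275, 6960.4 and 6253 units in CT26. The Tap1 arrays did not overlap either, and its log2 change was 0.39 (SE 0.06, 1.31-fold, adjusted p = 0.000805). Tapbpl, a relative of tapasin that edits the bound peptides, changed by 0.26 (SE 0.05, adjusted p = 0.00262). Tapasin itself, encoded by Tapbp, bridges TAP and the heavy chain and changed by -0.03 (interval -0.15 to 0.09), while its second probe passed as lower at -0.21 when probes were fitted separately. Erap1, the peptidase that trims peptides in the endoplasmic reticulum, went the other way. It had 3625, 3742, 3667 and 4029 units in CT26-FL3, against 5049.9, 5284, 4861 and 5552 units in CT26. The Erap1 level fell by 0.46 on the log2 scale (SE 0.06, adjusted p = 0.000219), with no overlap between the lines. Its second probe gave -0.52 and passed too, but it was far dimmer and near the limit. That probe had 24.4 to 31.0 units in CT26-FL3 against 32.1 to 45.6 units in CT26.

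**Figure D3:**
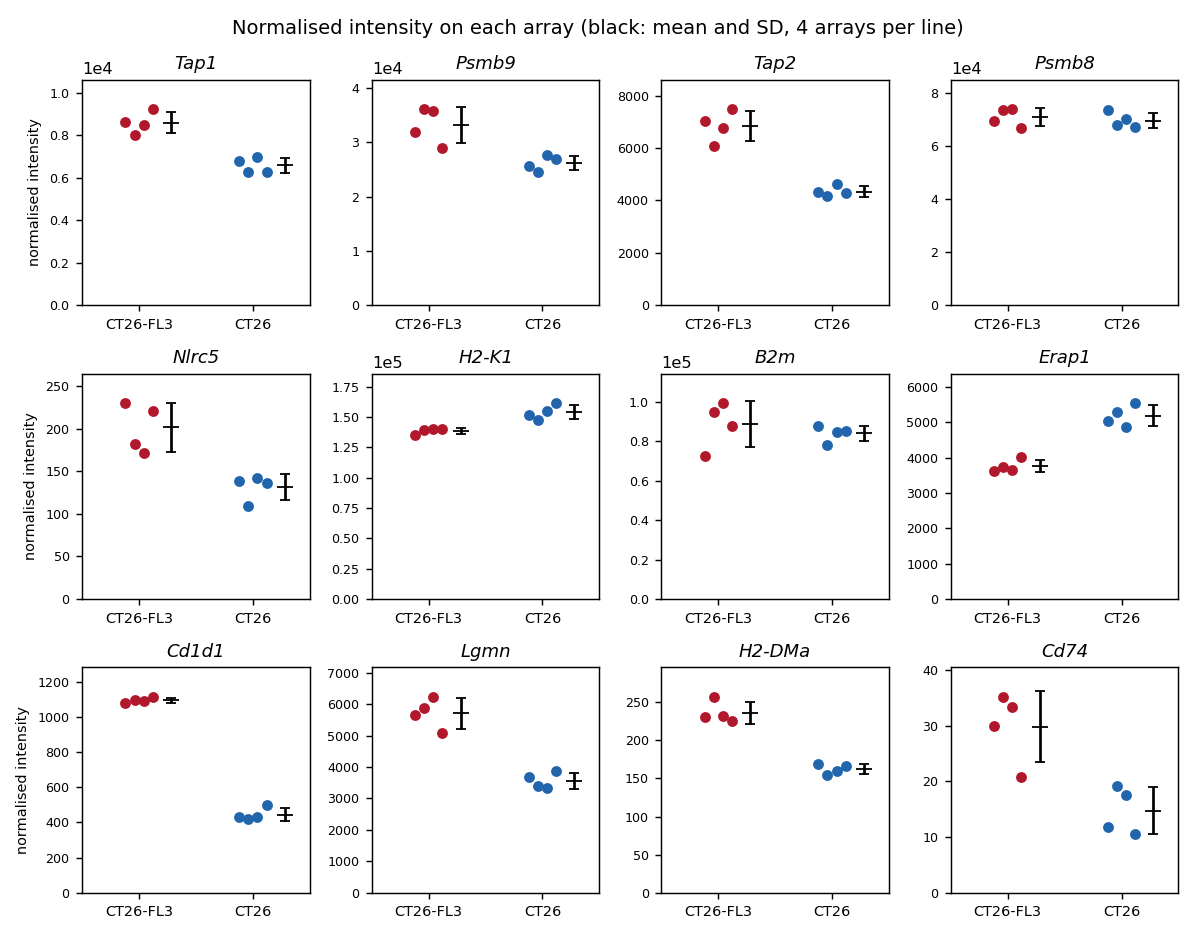
Normalised intensity (y axis, from 0) of 12 genes on each array, CT26-FL3 to the left of CT26, with 1 point per array and the mean and SD over 4 arrays in black. The lines do not overlap for Tap1, Psmb9, Tap2, Nlrc5, H2-K1, Erap1, Cd1d1, Lgmn, H2-DMa and Cd74, and they overlap for Psmb8 and B2m.

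The immunoproteasome replaces the standard catalytic subunits with Psmb8, Psmb9 and Psmb10, and Psme1 and Psme2 form its activator ring PA28. Here 1 of the 5 genes was higher in CT26-FL3 and 1 lower, beside 24.1% and 25.3% of all features. Psmb9 had 31975, 36115, 35724 and 29044 units in CT26-FL3, against 25616, 24592, 27608 and 26997 units in CT26. Its lines did not overlap, and its log2 change was 0.34 (SE 0.08, 1.26-fold, adjusted p = 0.00692). Psmb8 had 69372, 73534, 73938 and 66943 units in CT26-FL3, against 73531, 67785, 70050.5 and 67218 units in CT26. The Psmb8 arrays were mixed, with a change of 0.03 (interval -0.09 to 0.15, adjusted p = 0.711), and its second probe gave 0.03 as well. Psmb10 changed by 0.19 (interval 0.01 to 0.38, adjusted p = 0.0725). CT26 replicate 3 was its lowest array, and the gene passed without CT26-FL3 replicate 1 (0.24, adjusted p = 0.0491). The PA28 subunits parted: Psme2 fell by 0.31 on the log2 scale (SE 0.05, adjusted p = 0.00121), its second probe gave -0.35, and Psme1 changed by -0.02 (interval -0.16 to 0.12, adjusted p = 0.830).

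Tap1 and Psmb9 lie head to head, and their RefSeq start sites are 226 bases apart on opposite strands of chromosome 17, so that their promoter windows share 275 bases. The shared region is shown because both of its genes were higher in CT26-FL3 (0.39 and 0.34), while the neighbours Psmb8 and Tap2 changed by 0.03 and 0.65. Capitals mark its CCAAT match, the only motif of those above found in it.
Tap1 and Psmb9, chr17:34187306-34187580, strand of Tap1: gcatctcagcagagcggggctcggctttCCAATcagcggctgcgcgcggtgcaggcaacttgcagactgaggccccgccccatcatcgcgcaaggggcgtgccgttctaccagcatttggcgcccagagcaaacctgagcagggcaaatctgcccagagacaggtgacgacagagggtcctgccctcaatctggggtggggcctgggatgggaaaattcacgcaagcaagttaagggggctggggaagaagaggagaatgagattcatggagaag
None of the interferon-response-type or GAS letters occurred in these 275 reference bases, which says nothing of bases outside them or of the sequence in these lines.

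Nlrc5, the transactivator that drives class I promoters together with the RFX complex, was higher in CT26-FL3. It had 231, 183, 172 and 222 units in CT26-FL3, against 139, 109, 142 and 136 units in CT26. No arrays overlapped, and the Nlrc5 log2 change was 0.61 (SE 0.12, 1.53-fold, adjusted p = 0.00283).

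On the class II side, the transactivator and the chains of the surface molecule I-A were above the limit on no array of either line. Ciita had 2.85, 4.13, 6.29 and 3.54 units in CT26-FL3, against 3.26, 3.68, 2.85 and 9.17 units in CT26, and was above the limit on no array. H2-Aa encodes the alpha chain of I-A. The first of its 2 probes had 2.54, 3.22, 5.20 and 3.01 units in CT26-FL3, against 2.46, 3.05, 2.44 and 7.57 units in CT26. The second had 2.33, 3.33, 4.96 and 2.79 units in CT26-FL3, against 2.45, 3.14, 2.49 and 7.99 units in CT26. Neither H2-Aa probe, nor any of the 4 probes of H2-Ab1, which encodes the beta chain of I-A, was above the limit on any array. The H2-Ab1 probe printed in 10 spots had 11.3, 9.10, 6.18 and 9.25 units in CT26-FL3, against 9.92, 8.23, 11.6 and 11.4 units in CT26. A further H2-Ab1 probe had 8.96, 7.36, 5.11 and 6.64 units in CT26-FL3, against 8.91, 8.38, 5.81 and 10.3 units in CT26. The other H2-Ab1 probes were dimmer still. The first of them had 2.21, 2.64, 4.45 and 2.595 units in CT26-FL3, against 1.97, 2.63, 2.16 and 6.80 units in CT26, and the second had 2.21, 2.66, 4.46 and 2.59 units in CT26-FL3, against 1.99, 3.95, 2.17 and 6.86 units in CT26. H2-DMb1, a subunit of the exchange factor H2-DM, was above the limit on CT26-FL3 array 2 alone, for 1 of its 2 probes. That probe had 4.30, 26.9, 6.90 and 8.06 units in CT26-FL3, against 7.51, 4.13, 3.28 and 15.9 units in CT26. The other had 2.78, 3.47, 5.11 and 3.19 units in CT26-FL3, against 2.53, 3.04, 2.48 and 7.61 units in CT26. No change is given for Ciita, H2-Aa, H2-Ab1 or H2-DMb1, since these values bound a level and do not measure one. H2-Eb1 encodes the beta chain of I-E. It had 20.9, 29.3, 34.6 and 13.7 units in CT26-FL3, against 21.8, 30.3, 20.9 and 44.1 units in CT26. It was above the limit on 3 CT26-FL3 and 4 CT26 arrays, and its change of -0.26 had the wide interval of -1.01 to 0.48 (adjusted p = 0.544).

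Cd74 and H2-DMa were the class II genes of the assembly route that rose. Cd74 encodes the invariant chain and had 30.0, 35.2, 33.4 and 20.8 units in CT26-FL3, against 11.8, 19.1, 17.5 and 10.6 units in CT26. The lines did not overlap, and all 4 CT26-FL3 arrays but only 2 CT26 arrays were above the limit. The Cd74 log2 change was 1.03 (SE 0.23, 2.04-fold, adjusted p = 0.00555), on a level next to the detection limit, and it was 0.35 (adjusted p = 0.00236) when a constant of 50 units was added before taking log2. H2-DMa, the other subunit of H2-DM, had 229.97, 257, 231 and 225 units in CT26-FL3, against 169, 155, 159.5 and 167 units in CT26. The H2-DMa log2 change was 0.53 (SE 0.06, 1.45-fold, adjusted p = 8.26e-05), again without overlap.

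**Figure D4:**
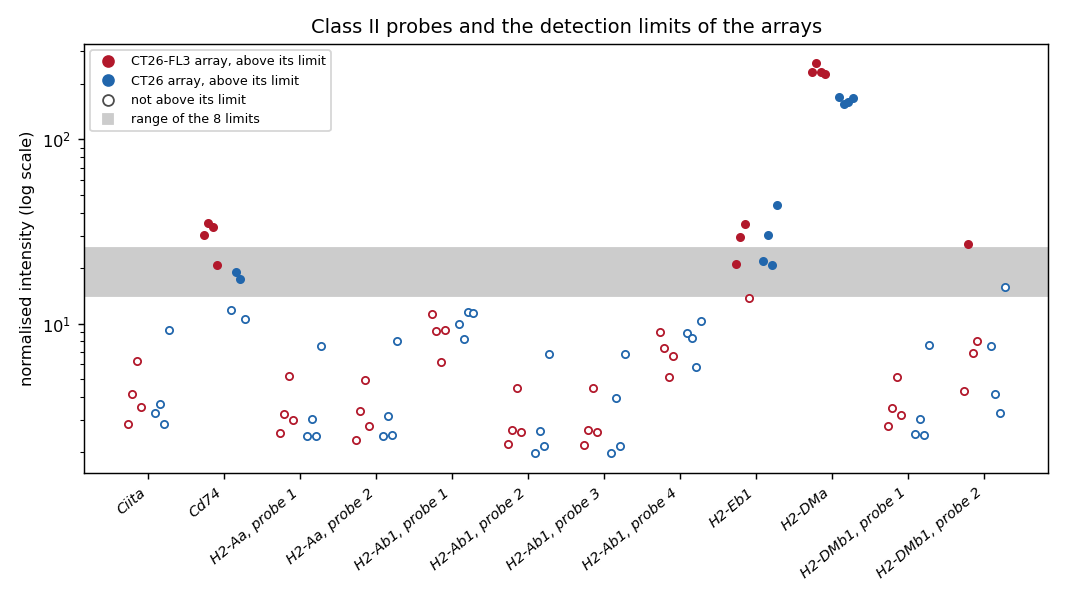
Normalised intensity (y axis, log scale) of each probe of Ciita, Cd74, H2-Aa, H2-Ab1, H2-Eb1, H2-DMa and H2-DMb1 on every array, CT26-FL3 to the left of CT26. Filled points were above the limit of their own array, open points were not, and the grey band spans the limits of the 8 arrays on the same scale. H2-DMa stands clear of the band, Cd74 and H2-Eb1 lie in or near it, and nearly all other points lie below it.

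The lysosomal genes of the list parted in direction. Legumain, the cysteine protease encoded by Lgmn that cuts antigens and other lysosomal proteins, had 5652, 5871, 6235 and 5068 units in CT26-FL3, against 3696, 3384, 3334 and 3860 units in CT26. Every CT26-FL3 array exceeded every CT26 array, and the Lgmn log2 change was 0.68 (SE 0.08, 1.60-fold, adjusted p = 0.000126). Ifi30, which encodes the thiol reductase GILT that opens disulfide bonds of antigens, fell by 0.36 on the log2 scale (SE 0.08, adjusted p = 0.00383), with 810 to 940 units in CT26-FL3 against 987 to 1215 units in CT26.

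RFX binds the X box of class I and class II promoters, and 2 of its 3 subunits were higher in CT26-FL3, as were 24.1% of all features. Rfx5, the DNA-binding subunit, had 201, 191, 176 and 226 units in CT26-FL3, against 173, 154, 147 and 140.2 units in CT26. The Rfx5 arrays did not overlap, and its log2 change was 0.37 (SE 0.09, 1.29-fold, adjusted p = 0.00897), while its second, dimmer probe gave 0.55 and did not pass. Rfxank changed by 0.40 (SE 0.06, 1.32-fold, adjusted p = 0.000457). Rfxap changed by -0.18 (interval -0.36 to 0.00, adjusted p = 0.0842), and without CT26-FL3 replicate 2, its highest CT26-FL3 array, it passed as lower (-0.25, adjusted p = 0.0110).

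Cd1d1 had the smallest adjusted p of the 27 genes. It encodes CD1d, a class I-like molecule that pairs with beta-2 microglobulin and shows lipids to natural killer T cells. Cd1d1 had 1079.8, 1097, 1088 and 1114 units in CT26-FL3, against 430, 420.5, 432 and 498 units in CT26. The 4 CT26-FL3 arrays lay close together and far above all CT26 arrays, and the log2 change was 1.30 (interval 1.17 to 1.44, 2.47-fold, adjusted p = 5.13e-07). Cd1d1 rested on 1 probe. A probe of its close copy Cd1d2 was above the limit on 1 CT26-FL3 array only. The calls of Tap1, Tap2, Tapbpl, Psmb9, Nlrc5, Cd74, H2-DMa, Lgmn, Ifi30 and Rfxank also rested on 1 probe each.

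Probes that shared a gene are not replicates, but they show how far a call depends on the probe. Apart from the 2 that the annotation gives to H2-Q2 and H2-Q4, the genes had 52 probes, of which 42 were bright enough to test. Fitted each as its own feature, 13 were higher in CT26-FL3, 7 lower and 22 not past the test, beside 48.3% past the test among all 23068 such probes. Probes of Erap1 and Psme2 gave the same call, those of H2-D1, B2m, Psmb8 and Rfxap all failed the test, and those of H2-K1, H2-T22, H2-M3, Tapbp and Rfx5 gave different calls.

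The arrays fall into 2 sets by a number in their file names, 1 set with replicates 1 and 2 of both lines and 1 with replicates 3 and 4. Within replicates 1 and 2 the log2 change was 0.62 for Tap2, 0.35 for Tap1, -0.49 for Erap1, 0.44 for Psmb9, 0.74 for Nlrc5, 1.11 for Cd74, 0.59 for H2-DMa, 0.70 for Lgmn and 1.36 for Cd1d1, and all 9 passed the test there. Within replicates 3 and 4 it was 0.68 for Tap2, 0.42 for Tap1, -0.43 for Erap1, 0.48 for H2-DMa, 0.65 for Lgmn and 1.25 for Cd1d1, which passed, and 0.24 for Psmb9, 0.49 for Nlrc5 and 0.95 for Cd74, which did not. Further calls lost with so few arrays were H2-K1, Tapbpl and Rfx5 in either set, Ifi30 within replicates 1 and 2, and Psme2 within replicates 3 and 4, each with the same sign as over all arrays.

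Other genes of the same pathways, taken as lists, gave the following, beside 49.5% past the test over all features. Of 13 class I-like genes 9 were tested: 3 were higher in CT26-FL3, 1 lower and 5 not past the test. They included Mr1, which presents vitamin B metabolites (log2 change 0.67), H2-T24 (0.24), and Hfe, a regulator of iron uptake (-0.66). Of 4 helpers of folding, loading and trimming, Pdia3, the disulfide isomerase of the loading complex, was lower (-0.27), and the chaperone genes Calr and Canx and the endosomal aminopeptidase gene Lnpep did not pass. Of 6 genes for constitutive proteasome subunits and other activators, Psme4, an activator cap, was lower (-0.27) and 5 did not pass. Of 7 further class II genes, 5 were above the limit on no array, H2-Ea was above it on 1 CT26 array, and Marchf8, a ubiquitin ligase, did not pass (0.06).

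Among 4 lysosomal proteases, cathepsin S (Ctss), which cleaves the invariant chain, was higher in CT26-FL3, with a normalised intensity of 492 ± 28.9 in CT26-FL3 against 31.9 ± 6.55 in CT26 (SD, n = 4 each). Its log2 change was 3.97 (SE 0.13, adjusted p = 9.08e-08). Ctss was above the limit on all arrays, but its CT26 values of 26.2 to 39.8 units lay near it. The size of the Ctss change is therefore not well measured. Ctsb was higher too (0.35), Ctsd was lower (-0.23) and Ctsl did not pass (0.00). Of 13 genes of interferon signalling 6 were higher, 2 lower and 5 not past the test, beside 24.1% higher and 25.3% lower over all features. The higher ones included Irf8 (1.16) and Irf1 (0.59), transcription factors that act downstream of interferon gamma, while the receptor genes Ifngr1 (0.04) and Ifngr2 (-0.19) did not pass. Of 4 factors that bind the other elements of the same promoters, Nfya and Creb1 were higher (0.32 each), Nfyc was lower (-0.33) and Nfyb did not pass.

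Markers of other cell types were read beside the class II results, because some of these cells (macrophages, dendritic cells and B cells) carry much class II. The counts below stand beside 24.1% higher and 25.3% lower over all features. Ptprc (CD45), which all leukocytes carry, was above the limit on no array, and neither were Adgre1 and Itgam of macrophages, Cd209a of dendritic cells, or Cd79b and Ms4a1 of B cells. Of 8 macrophage genes 3 were higher in CT26-FL3 (Mrc1 0.99, Mpeg1 0.89 and Cd68 0.38), 2 were lower (Cd14 -1.45, and Lyz2), 1 did not pass and 2 were above the limit on no array. Lyz2 was above the limit on all 4 CT26 arrays and on no CT26-FL3 array, so its change is only bounded. The summed level of the 8 genes ran from 3588 to 3985 units in CT26-FL3 against 8497 to 9025 units in CT26. The order of the sums was set by Cd14, for without it they ran from 845 to 921 units in CT26-FL3 against 604 to 712 units in CT26. Of 5 dendritic cell genes Itgax was higher (0.63) and 2 tested genes did not pass, and their sum ran from 227 to 269 units in CT26-FL3 against 196 to 228 units in CT26. Of 5 B cell genes Pax5 was higher (2.86), with sums of 646 to 894 units in CT26-FL3 against 152 to 175 units on the 3 CT26 arrays whose Pax5 spot had not failed. Of 7 T and natural killer cell genes Lck was higher (2.28) and 2 did not pass, with sums of 387 to 421 units in CT26-FL3 against 159.7 to 215 units in CT26, and Cd8a, Ncr1 and Nkg7 were above the limit on no array. Of 5 endothelial genes Pecam1, Cdh5 and Kdr were above it on no array, Stab2 was above it on all arrays and did not pass (-0.15), and Tie1 was above it on all 4 CT26-FL3 arrays and on no CT26 array. Their sum ran from 101 to 131 units in CT26-FL3 against 93.3 to 112 units in CT26. Of the hepatocyte genes Alb was above the limit on no array, Ttr on 1 CT26 array, and Apoa1 was detected on all arrays and higher in CT26-FL3 (0.24, adjusted p = 0.0234). The hepatocyte sum ran from 85.1 to 87.9 units in CT26-FL3 against 75.2 to 94.5 units in CT26. All 6 genes of the fibroblast and stellate cell list were detected on every array: Dcn (3.32) and Fap (0.93) were higher in CT26-FL3, Col1a1 (-0.76), Pdgfrb (-0.47) and Pdgfra (-0.19) were lower, and Col1a2 did not pass (-0.07). Their sum ran from 205900 to 224250 units in CT26-FL3 against 192210 to 230890 units in CT26. For the labelled colon carcinoma line, Krt8 (2.23) and Krt18 (1.56) were detected on all arrays and higher in CT26-FL3, and Epcam, Cdh1, Krt19 and Vil1 were above the limit on no array. In such bulk RNA a change in a few cells and a change in all cells cannot be told apart, and the part of the markers that did move in the class II results was not tested.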

How the data were processed

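Total RNA of 4 CT26-FL3 and 4 CT26 samples was Cy3-labelled for 1-colour arrays, per the labels' protocols. Groups and replicate numbers follow the sample names, since the CT26-FL3 titles are numbered differently. The authors deposited the intensity of every spot, and the submitters' processing notes name Agilent Feature Extraction without a version. Background had been subtracted from the deposited intensity: the median over negative controls was 2.23 to 7.43 units, against 21.1 to 24.4 units in the background column. These columns replaced the planned processed signal and detection flags. A probe was called detected above 2.6 times the median standard deviation of its array's 153 negative controls.

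Control spots (1639) and between 3 and 76 failed spots on each array were dropped, the log2 values of repeated spots were averaged, and each array's 75th percentile (808 to 1151 units) was subtracted. Probes above the limit on at least 4 of 8 arrays were kept (23068), and the brightest stood for its gene. Names came from the platform annotation, updated through gene identifiers in a RefSeq table of GRCm38.p6 for 32524 probes, through accessions for 814, and from the array's own name for 7651. Another 140 kept the annotated symbol and 45 had several genes. The model was limma 3.58.1 in R 4.3.3 (lmFit, eBayes, no block, two-sided), tested on simulated data. Precision is limited by the number of arrays. A table of log2 values deposited by the authors was set against the arrays. Every probe in it had a median of about 0 across the arrays, and its columns, with medians of -0.01, 0.00, -0.01 and 0.02 for CT26 replicates 1 to 4 and 0.00, 0.00, 0.02 and 0.00 for CT26-FL3 replicates 1 to 4, had correlations of 0.985 to 0.998 with the centred arrays (20852 probes). This set its log scale and direction, while its exact normalization is not known. It served as an alternative.

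The genes, lists and alternatives were chosen with earlier results of these data known. All 34 genes are accounted for. Values on every array are given for genes past the test with a log2 change of at least 0.5 in size or with only a bound, and for 10 genes whatever their result (H2-K1, H2-D1, B2m, Tap1, Psmb8, Nlrc5, Ciita, Cd74, H2-Aa and Rfx5). Erap1, Psmb9 and H2-Eb1 were added to these after their values were seen. From each other list up to 3 genes past the test are named (some genes are not reported here), and further ones with their values were chosen after these were seen. Alternatives changed the scaling, the constant, the filter, the choice of probe, failed spots, the source table, blocks, left-out replicates and the variance model.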

Additional observations from a re-analysis of the deposited data

Results flagged for a closer look

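In 6 of 54 groups of 4 arrays (27 genes in each line), the highest or lowest array stood apart from the other 3, by a gap that took more of the group's range on the log2 scale than Dixon's 95% critical value allows. Chance gives this in about 1 of 20 groups. For H2-K1, CT26-FL3 replicate 1 had 134969 units beside 139468 to 140345 units on the other CT26-FL3 arrays, a gap of 0.840 of the range. For Tapbpl, CT26-FL3 replicate 1 had 2305 units beside 2350.5 to 2359 units (0.841 of the range). For Rfxap, CT26-FL3 replicate 2 had 6199 units beside 5026 to 5186 units (0.85 of the range). For Psmb10, CT26 replicate 3 had 61967 units beside 75226 to 76251 units on the other CT26 arrays (0.935 of the range). For Nlrc5, CT26 replicate 2 had 109 units beside 136 to 142 units (0.831 of the range). For Cd1d1, CT26 replicate 4 had 498 units beside 420.5 to 432 units (0.840 of the range). For Cd1d1, Tapbpl and Nlrc5 the arrays of the lines did not overlap with these arrays included.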

How the results depend on the processing

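Under 23 alternatives, the 27 tested genes gave 619 values: none turned its direction past the test, 592 kept their side of the threshold, 19 lost a call and 8 gained one. Tap1, Tap2, Erap1, H2-DMa, Lgmn, Rfxank and Cd1d1 passed in every alternative that was run for them. The count of genes past the test, 15 over all arrays, was 8 within replicates 3 and 4 (6 higher and 2 lower), the class I count of 8 was 3 there, and the count over all features came to 4205 within replicates 1 and 2 and to 4183 in the other set, against 7472. These fits used 4 arrays each. Leaving out 1 replicate at a time gave 14 to 16 genes, 7 to 8 of class I, 4 of class II and 6808 to 7123 of all features. H2-K1 lost its call in 9 alternatives (adjusted p up to 0.340), among them centring on the median (-0.13, adjusted p = 0.161) and no filter on dim probes (adjusted p = 0.0852). H2-M3 passed in 4 (quantile normalization, mean of probes, the deposited table, and a trended robust variance model), and Psmb10 and Rfxap passed in 2 each. Median centring and quantile normalization moved the median of all features by 0.02 and 0.01. Same-numbered samples of the lines deviated together at r from 0.01 to 0.17 by sample name and from -0.21 to 0.17 by title, so the numbers were not taken to pair samples. With the replicate number as a block, 14 genes and 6932 features passed by sample name, and 13 genes and 5575 features by title, H2-K1 losing its call in both (adjusted p = 0.0542 and 0.0911) and Nlrc5 by title (adjusted p = 0.0572). Samples of the lines that shared a file-name number deviated together at r from 0.01 to 0.23 (mean 0.13). Those with different file-name numbers had r from -0.24 to 0.09 (mean -0.13). Deviations were taken from each line's own mean, which makes these means nearly opposite, so the second adds nothing to the first. With the file-name number as a block, 15 genes and 7518 features passed. Signal over background limits the class II genes: Ciita, H2-Aa, H2-Ab1 and H2-DMb1 could not be compared, and an H2-Eb1 change of up to 1.01 in size lies within its interval.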
